A study of Mus musculus with 6 samples.

Results

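Nr2f1, Nr2f2 and Nr2f6 encode the NR2F orphan nuclear receptors and are 3 of the 21755 protein-coding genes that GENCODE vM21 places on chromosomes 1 to 19 and X of the mouse. For each gene, H3K4me1 peaks over the gene body or within 5 kb of it were taken, together with the peaks in the flanking gene desert, up to 1 Mb away, whose nearest protein-coding start site belonged to that gene. This gave 18 of the 16788 peaks of replicate 1, 12 of the 12969 of replicate 2 and 15 of the 13998 of replicate 3. The mark was profiled by CUT&Tag, where a transposase is tethered to an antibody-bound mark, in whisker pads of wild-type mouse embryos at E12 that had been dissociated to single cells. The 6 samples carry the strain label B6/J2 and no treatment, and comprise 3 H3K4me1 samples, named replicates 1 to 3 after the pad number of their titles, and 3 IgG controls, which were not analysed here. Whether a pad came from 1 embryo or from several is not given in the sources used here.

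NR2F proteins bind DNA as dimers at repeats of the half-site AGGTCA, and no hormone that they need in the cell is established, which is why they are called orphan receptors. NR2F1 and NR2F2, also named COUP-TFI and COUP-TFII, act widely in mesenchyme, in the neural crest that builds the face and in the developing nervous system. NR2F2 is in addition a regulator of venous and lymphatic endothelium. NR2F6, also named EAR2, is the most divergent of the family and is studied above all in blood and immune cells. H3K4me1 marks enhancers, whether active or poised, and also lies on both sides of active promoters, where the nucleosomes next to the start site carry H3K4me3 in its place.

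Each deposited peak has a total signal, the sum of the fragment pileup over its bases, and a maximum signal, the highest pileup. The signals were not scaled to depth and the lists hold no read numbers, so a peak is described here by its percentile of total signal within its own list, where 100 is the strongest peak. The lists kept a fixed 1% of signal blocks, so a number of peaks is no measure of enrichment. Replicates 2 and 3 carry a source name of adult kidney while their titles give whisker pad, and the titles were used. Of 13 facial mesenchyme markers, 13, 12 and 13 had a peak in the body or 5 kb on either side in replicates 1, 2 and 3, against 5, 4 and 3 of 14 markers of adult kidney. As a share, the kidney markers stood at 35.7%, 28.6% and 21.4%, beside 24.9%, 22.6% and 19.6% of all protein-coding genes. A peak was found at 6, 6 and 4 of 10 surface ectoderm markers, at 1, 2 and 0 of 6 neuronal markers and at 2, 1 and 1 of 6 endothelial markers. The peaks of replicate 3 had a lower median GC content, 45.7%, than those of replicates 1 and 2, at 48.4% and 48.7%.

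Nr2f1 lay on the minus strand at chr13:78188973-78199757 (GRCm38), with Fam172a 22.7 kb beyond its 3′ end and a desert of 2684 kb on its 5′ side before Arrdc3. Replicates 1, 2 and 3 assigned 4, 5 and 4 peaks to it, on average 4.33 ± 0.577 (SD, n = 3). The peaks covered 26.1, 27.6 and 23.9 kb, a mean of 25.9 ± 1.85 kb (SD, n = 3). All of these peaks fell into 3 regions, each of which held a peak in every replicate, and in each pair of replicates every Nr2f1 peak overlapped a peak of the other. This rests on an overlap of at least 1 bp: with the shared stretch required to be 50% or more of each peak, 50% of the Nr2f1 regions held a peak in every replicate. Across the whole set, 8916 of 19246 regions merged at 1 bp, or 46.3%, held a peak in all 3 replicates.

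The longest H3K4me1 domain of Nr2f1 began downstream of its start sites and ran past the 3′ end of the gene. In replicate 1 it was a single peak of 15393 bp at the 93.9th percentile of total signal. In replicate 2 the same stretch was split into a peak of 12028 bp at the 80.0th percentile and one of 2366 bp at the 10.7th. In replicate 3 it was a single peak of 13443 bp at the 95.6th percentile. The domain was long rather than dense. By length, the long peak stood at percentiles 99.2, 96.8 and 98.8 of replicates 1, 2 and 3. Its pileup per base was 8.59, 7.86 and 11.4, which placed it at percentiles 34.2, 5.58 and 53.5 by that measure.

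A pair of peaks flanked Nr2f1 upstream of its 5′ start site, over the antisense transcript A830082K12Rik. Merged over the replicates they formed the region chr13:78201369-78214094. The peak nearer to the gene stood at percentiles 39.3, 63.1 and 61.3 in replicates 1, 2 and 3, and the farther one at 85.3, 66.4 and 67.1. The highest pileup of the farther peak lay at the same place in every replicate, at chr13:78210794, chr13:78210644 and chr13:78210765, which is within 150 bp. The only other region of Nr2f1 was chr13:78425502-78429269, about 228 kb upstream, within the long noncoding gene Gm31946. It reached percentiles 37.4, 22.3 and 69.6, so replicate 3 was well above the others. Expressed as a share of the list's signal, this region took 27.2 and 30.9 ppm in replicates 1 and 2 and 68.2 ppm in replicate 3.

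The reference sequence is shown for the places where the pileup maxima of at least 2 replicates fell within 200 bp. The windows hold 121 bases on the plus strand of GRCm38. The first lies in a coding exon of Nr2f1 (replicates 1 and 2), the others in introns of A830082K12Rik (replicates 1 and 3, then all 3 replicates). In the exon window, the maximum of replicate 2 is that of its 2366 bp peak at the 10.7th percentile. The maxima of the long peaks of that domain did not recur and spread over 5475 bp. The fourth sequence is the 250 bases upstream of the 5′ start site, on the minus strand, which no peak covered in any replicate. Capitals mark motif matches here and in the sequences of the other genes, and these 4 sequences hold none.
Nr2f1 exon, chr13:78195351-78195471: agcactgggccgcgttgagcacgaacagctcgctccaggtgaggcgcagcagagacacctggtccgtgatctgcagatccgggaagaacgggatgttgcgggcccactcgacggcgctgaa
Nr2f1 upstream, chr13:78204549-78204669: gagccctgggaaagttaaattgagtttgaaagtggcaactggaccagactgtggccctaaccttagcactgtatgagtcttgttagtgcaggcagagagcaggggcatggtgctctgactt
Nr2f1 upstream, chr13:78210705-78210825: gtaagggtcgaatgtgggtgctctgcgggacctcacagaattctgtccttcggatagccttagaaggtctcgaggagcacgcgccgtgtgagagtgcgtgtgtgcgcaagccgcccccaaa
Nr2f1 promoter, chr13:78199758-78200007: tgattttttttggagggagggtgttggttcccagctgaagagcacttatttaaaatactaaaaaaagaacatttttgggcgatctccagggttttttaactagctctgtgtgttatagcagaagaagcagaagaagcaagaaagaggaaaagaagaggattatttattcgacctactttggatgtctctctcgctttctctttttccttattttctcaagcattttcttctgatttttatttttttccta

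**Figure D1:**
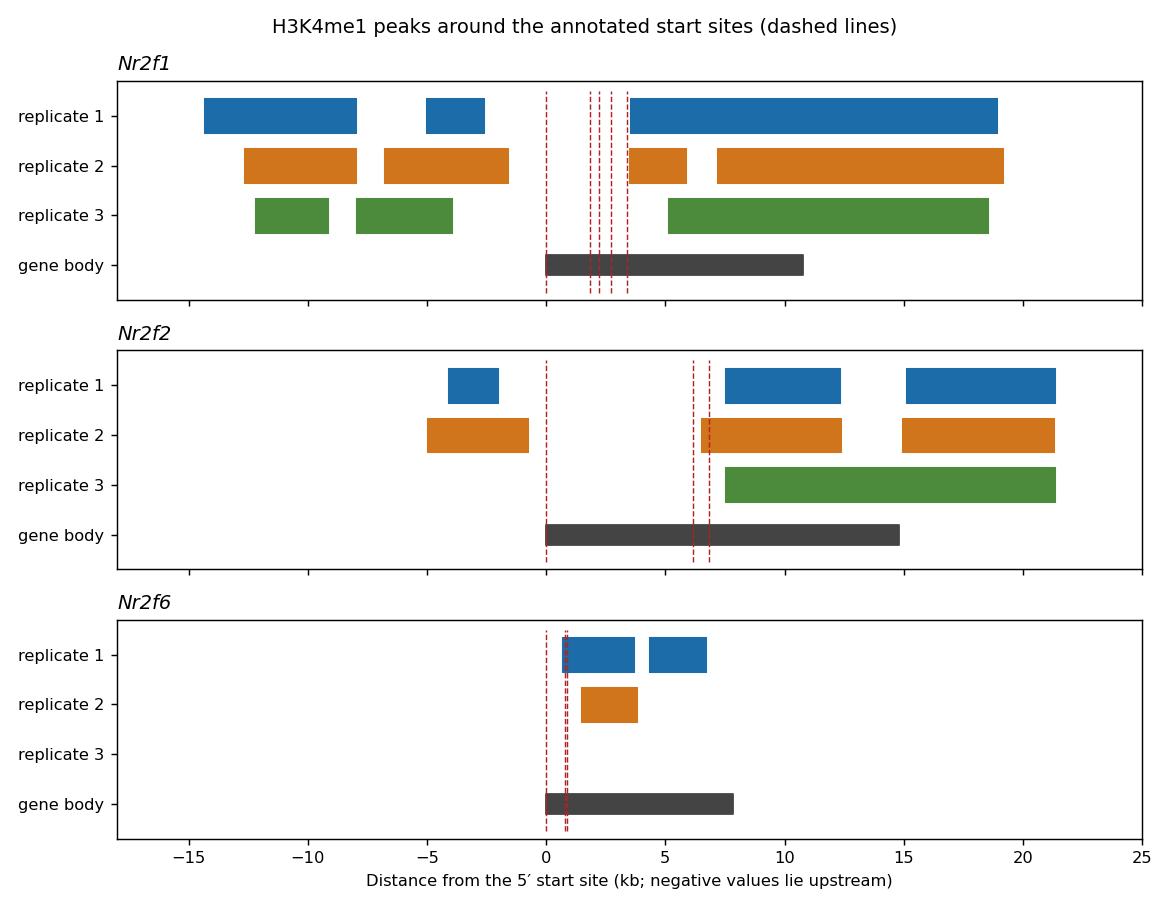
H3K4me1 peaks of the 3 replicates (coloured bars) around the body of each gene (dark bar), by distance in kb from the 5′ start site, with negative values upstream; dashed lines are the annotated start sites of protein-coding transcripts. The peaks of Nr2f1 leave a gap of 6124, 5096 and 9069 bp that holds all 5 start sites, and Nr2f6 has no peak in replicate 3.

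None of the 5 annotated start sites of Nr2f1 was covered by a peak in any replicate, although peaks stood close on both sides. The gap over the 5′ start site was 6124 bp in replicate 1, 5096 bp in replicate 2 and 9069 bp in replicate 3. The start site nearest to the gene-body peak, at chr13:78196373, was 126, 101 and 1728 bp away from it. An uncovered 5′ start site was usual in these lists: it was found in all 3 replicates for 68.2% of the 3360 genes that had a peak in the body or 5 kb on either side in every replicate and an annotated protein-coding start, and only 1.82% of all 21670 5′ start sites were covered in all 3. A start site left bare with a peak within 10 kb on both sides in all 3 replicates was found at 78 of 21670 genes, 0.36%, and Nr2f1 was among them. This share is over all genes, including those without any peak nearby, and not over the 3360. The stretch of the gap common to the 3 replicates, chr13:78196273-78201368, had a GC content of 51.9% and an observed to expected CpG ratio of 0.744. The 2 regions next to it had medians of 47.0% and 0.376, and the median over all regions shared by the 3 replicates was 47.3% and 0.233.

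Nr2f2 lay on the minus strand at chr7:70351944-70366735, with Arrdc4 1603 kb beyond its 3′ end and the predicted gene Gm10295 982 kb away on the 5′ side. Replicates 1, 2 and 3 assigned 12, 6 and 11 peaks to it, on average 9.67 ± 3.21 (SD, n = 3), covering 34.9, 25.6 and 44.4 kb, a mean of 35.0 ± 9.41 kb (SD, n = 3). Replicate 2 held the fewest peaks and replicate 3 the most covered sequence. The peaks merged into 15 regions, of which 3 held a peak in all replicates, 6 in 2 replicates and 6 in a single one. Replicate 2 held no region of its own: each of its 6 peaks overlapped a peak of replicate 1 and 4 overlapped one of replicate 3. In the other direction, 6 of the 12 peaks of replicate 1 and 3 of the 11 of replicate 3 overlapped a peak of replicate 2.

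The strongest H3K4me1 of Nr2f2 covered the 3′ part of the gene and the sequence beyond its 3′ end, chr7:70345375-70360244. Replicate 1 held a pair of peaks there, of 6255 and 4821 bp, at percentiles 86.7 and 88.5. Replicate 2 held a pair of 6344 and 5892 bp at percentiles 83.9 and 86.5. Replicate 3 held a single peak of 13854 bp at the 97.4th percentile, which spanned the interval that separated the pair in the others. The region took 203, 233 and 263 ppm of the list's signal, the largest share of any Nr2f2 region in each replicate. By pileup per base, the pair stood at percentiles 72.8 and 90.6 in replicate 1 and at 74.1 and 85.0 in replicate 2, the peak over the gene body being the higher. The single peak of replicate 3, which also runs beyond the gene, stood at 75.6. All of these were above the percentiles of 34.2, 5.58 and 53.5 of the long Nr2f1 peak in the same replicate. By the total signal of single peaks, the strongest peak of both genes stood in the upper part of each list. That rank depends on how a domain is split into peaks. Summed over its gene domain, Nr2f1 took 161, 123 and 205 ppm of the list's signal, less than Nr2f2 in every replicate.

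A short region lay just upstream of the Nr2f2 5′ start site, chr7:70367491-70371738, within B130024G19Rik, a noncoding transcript. It stood at percentiles 23.5 and 54.2 in replicates 1 and 2, and replicate 3 had no peak there. The region on the 3′ side, chr7:70329831-70334368, likewise held peaks in replicates 1 and 2 alone, at percentiles 11.6 and 48.0. Of the 3 annotated start sites of Nr2f2, a peak covered 0, 1 and 0 in replicates 1, 2 and 3. The gap over the 5′ start site measured 9514 bp in replicate 1 and 7246 bp in replicate 2, with a peak within 10 kb on both sides. In replicate 3, which lacked the upstream peak, it measured 56681 bp. The sequence of the gap shared by replicates 1 and 2 had a GC content of 48.4% and an observed to expected CpG ratio of 0.690, beside medians of 50.04% and 0.463 of the Nr2f2 regions at the gene. The 1 kb before and after the 5′ start site itself had 43.2% and 0.311, lower than those regions on both measures.

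The upstream desert of Nr2f2 held most of its peaks in replicates 1 and 3, while in replicate 2 more lay at the gene. There were 8, 2 and 10 upstream peaks in replicates 1, 2 and 3, against 3, 3 and 1 at the gene, and the upstream peaks formed 12 regions that lay between 50.3 and 482 kb upstream of the start site. Most of these peaks were in the weaker part of their lists. The desert peaks of both sides together had a mean percentile of 27.8, 33.9 and 38.4 in replicates 1, 2 and 3, against 66.2, 74.9 and 97.4 for the peaks at the gene.

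Only 2 of the 12 upstream regions held a peak in every replicate. The first, chr7:70623872-70626838, about 259 kb upstream, stood at percentiles 61.4, 51.5 and 58.2, and was thus near the middle of each list. The second, chr7:70847286-70849406, about 482 kb upstream, was weak, at percentiles 7.13, 2.14 and 30.2. Its positions of highest pileup nevertheless fell within 72 bp of each other. The strongest of the upstream regions, chr7:70697033-70701656, about 333 kb upstream, reached percentiles 62.0 in replicate 1 and 80.0 in replicate 3 and held no peak in replicate 2. The 6 regions of a single replicate had percentiles from 0.361 to 63.4. The weakest, about 66.9 kb upstream in replicate 3, had a total signal of 19394, next to the list minimum of 19337.

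**Figure D2:**
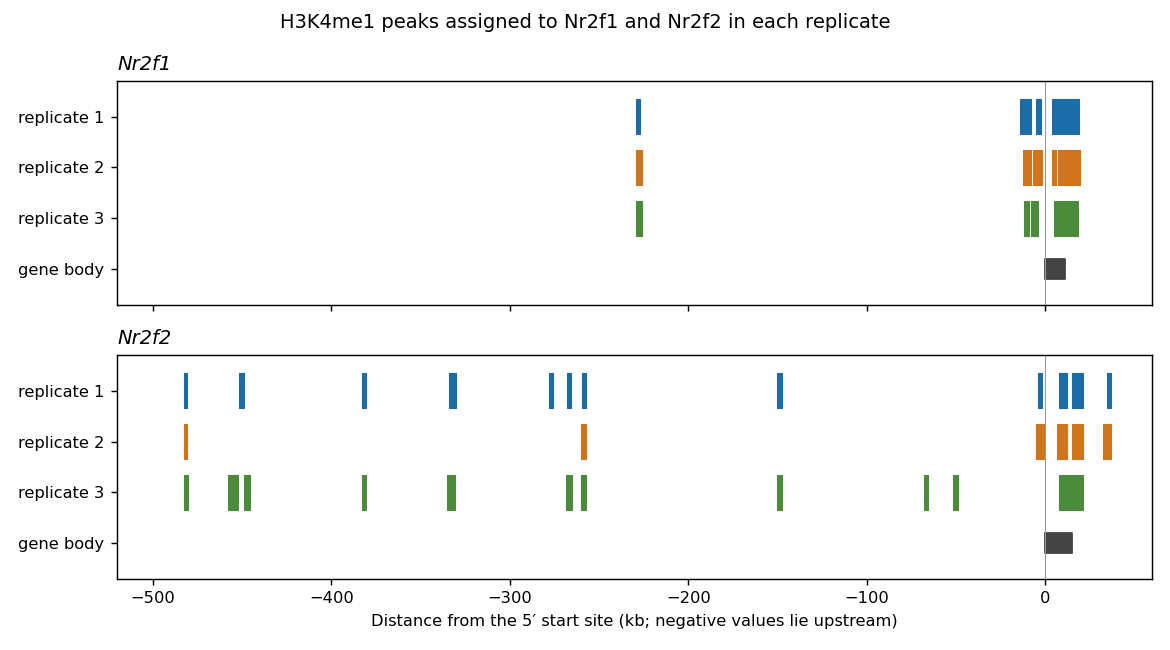
H3K4me1 peaks assigned to Nr2f1 and Nr2f2 in each replicate (coloured bars), by distance in kb from the 5′ start site, with negative values upstream; dark bars are the gene bodies. Nr2f1 has the same 3 groups of peaks in every replicate, whereas Nr2f2 has 8, 2 and 10 upstream desert peaks in replicates 1, 2 and 3.

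The windows of Nr2f2 are shown for the gene domain (replicates 1 and 3), for both upstream regions held in all replicates (maxima of replicates 1 and 3 in the first, of all 3 in the second) and for the region about 333 kb upstream, which was added after its values were seen because it was the strongest of the desert. All are on the plus strand of GRCm38, followed by the 250 bases upstream of the 5′ start site on the minus strand. The first overlaps a retained-intron transcript of Nr2f2, and the other 3 windows overlap no annotated gene. The promoter sequence overlaps an exon of B130024G19Rik and was covered by no peak. Capitals mark an AP-2 motif in the window about 333 kb upstream and a CTTTGA in the promoter.
Nr2f2 gene domain, chr7:70355131-70355251: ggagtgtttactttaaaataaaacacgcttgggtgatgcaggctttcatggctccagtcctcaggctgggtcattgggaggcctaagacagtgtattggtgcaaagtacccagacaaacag
Nr2f2 desert, chr7:70624862-70624982: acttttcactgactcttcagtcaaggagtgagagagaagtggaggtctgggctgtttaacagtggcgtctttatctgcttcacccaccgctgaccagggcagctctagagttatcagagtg
Nr2f2 desert, chr7:70699658-70699778: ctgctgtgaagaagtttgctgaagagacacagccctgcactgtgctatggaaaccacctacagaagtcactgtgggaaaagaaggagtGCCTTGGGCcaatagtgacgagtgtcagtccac
Nr2f2 desert, chr7:70848141-70848261: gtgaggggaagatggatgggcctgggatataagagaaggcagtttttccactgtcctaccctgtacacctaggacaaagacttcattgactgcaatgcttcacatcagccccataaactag
Nr2f2 promoter, chr7:70366736-70366985: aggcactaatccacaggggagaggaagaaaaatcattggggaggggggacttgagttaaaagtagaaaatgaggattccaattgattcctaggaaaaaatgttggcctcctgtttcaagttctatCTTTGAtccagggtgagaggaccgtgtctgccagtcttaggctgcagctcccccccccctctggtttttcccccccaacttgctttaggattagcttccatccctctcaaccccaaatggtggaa

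Nr2f6 lay on the minus strand at chr8:71374123-71381960 in a gene-dense stretch. It overlapped Ocel1, with Use1 4.39 kb and Ushbp1 2.31 kb away, so it had no flanking desert under the rule used. Replicates 1, 2 and 3 assigned 2, 1 and 0 peaks to it, covering 5.42, 2.34 and 0 kb. The region chr8:71378138-71381281 was held by replicates 1 and 2, at percentiles 64.9 and 57.5, with both positions of highest pileup within 4 bp of each other in an intron of Nr2f6. The peak of replicate 1 covered 2 of the 3 annotated start sites, and that of replicate 2 covered 0. The region chr8:71375257-71377649 was held by replicate 1 alone, at the 14.6th percentile. Because Ocel1 overlaps Nr2f6, these peaks cannot be given to one gene rather than the other.

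In replicate 3 the absence extended well beyond Nr2f6. No peak of that replicate lay in the 1716 kb of chr8:70698732-72414487, a stretch that wholly contains 60 protein-coding genes, whereas replicates 1 and 2 had 12 and 8 peaks in it. The GC content of the Nr2f6 regions was 59.2% and 59.4%, and the 1 kb before and after the start site had 70.4% and an observed to expected CpG ratio of 0.907. The window of Nr2f6, on the plus strand, and its promoter sequence, on the minus strand, are shown. They hold the single recurrent maximum and the most CpG-rich 5′ start site of the family. The promoter has 42 CpG in 250 bases, against 3 in that of Nr2f1 and 1 in that of Nr2f2. These counts cover the bases upstream of the 5′ start site alone, and the other start sites were not scored. The 1 kb before and after the Nr2f1 5′ start site had 58.2% GC and a ratio of 0.790, so its few upstream CpG do not describe the wider start. Capitals in it mark a CAGATG, the reverse complement of CATCTG, and 2 AP-2 motifs.
Nr2f6 intron, chr8:71380075-71380195: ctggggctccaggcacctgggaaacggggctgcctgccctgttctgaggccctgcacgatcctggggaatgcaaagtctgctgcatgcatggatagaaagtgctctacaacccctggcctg
Nr2f6 promoter, chr8:71381961-71382210: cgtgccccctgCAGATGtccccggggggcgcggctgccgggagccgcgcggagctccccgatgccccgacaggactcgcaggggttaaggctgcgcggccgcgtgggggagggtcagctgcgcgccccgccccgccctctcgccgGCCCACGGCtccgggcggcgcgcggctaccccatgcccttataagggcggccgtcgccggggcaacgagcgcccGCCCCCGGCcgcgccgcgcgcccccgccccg

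Nr2f1 and Nr2f2 had a peak at the gene in every replicate, and Nr2f6 in replicates 1 and 2. Of all protein-coding genes, 24.9%, 22.6% and 19.6% had one in replicates 1, 2 and 3, and 15.5% in all 3. Among the 3374 genes with such a peak in all replicates, the median of the mean percentile of the strongest peak was 71.9. Nr2f1 stood at 89.8 ± 8.53 (SD, n = 3), with 23.2% of those genes higher, and Nr2f2 at 90.8 ± 5.83 (SD, n = 3), with 21.8% higher. Both were thus in the upper part of the genes that carried the mark, without being at its top. Desert peaks in all 3 replicates were present at both genes, against 6.18% of all protein-coding genes. That share is over all genes, including those that, as Nr2f6, have no flanking desert, and not over genes with deserts of like size.

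By the mean number of assigned peaks, 897 genes were above Nr2f1 and 256 above Nr2f2, and 1.27% of genes had at least as many as Nr2f2. By the mean number of desert peaks, 88 genes had more than Nr2f2, with 74, 280 and 45 genes above it in replicates 1, 2 and 3 taken singly, while 3325 genes had a higher mean number of all peaks than Nr2f6. Densities per 100 kb of desert, both sides together, were set against the genome. The genome-wide values also count the peaks at genes, so they do not place these deserts among other deserts. The desert of Nr2f1 held 0.197 peaks per 100 kb in each replicate, under the genome-wide 0.656, 0.507 and 0.547 of replicates 1, 2 and 3. That of Nr2f2 held 0.703, 0.234 and 0.781 per 100 kb, above the genome-wide density in replicates 1 and 3 and below it in replicate 2. Its peaks covered 1.70%, 0.714% and 2.39% of the desert, against 2.47%, 2.32% and 2.23% of the genome, so the covered share was above the genome's in replicate 3 alone. On the upstream side, 487 kb cut at the midpoint to the predicted gene Gm10295, the density was 1.64, 0.410 and 2.05 per 100 kb, and the downstream side of 792 kb held 1, 1 and 0 peaks.

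Nr2f1 and Nr2f2, the closest paralogues of the family, were compared within each replicate. Nr2f2 had 8, 1 and 7 more peaks than Nr2f1 in replicates 1, 2 and 3, a mean difference of 5.33 ± 3.79 (SD), with the same direction in 3 of 3 replicates (exact two-sided permutation test over sign flips, p = 0.25, n = 3). That is the smallest p that 3 replicates can give, so the design cannot reach 0.05. Nr2f2 covered 8.82 and 20.5 kb more than Nr2f1 in replicates 1 and 3, and Nr2f1 covered 1.99 kb more in replicate 2. The mean difference of 9.11 ± 11.2 kb (SD) was within the spread between replicates (exact two-sided permutation test over sign flips, p = 0.5, n = 3). Among the stronger 50% of each list the direction of covered sequence turned: Nr2f1 then covered 0.261 kb more on average. The difference of Nr2f1 minus Nr2f2 in peaks kept its sign there but was smaller, at -1.33.

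**Figure D3:**
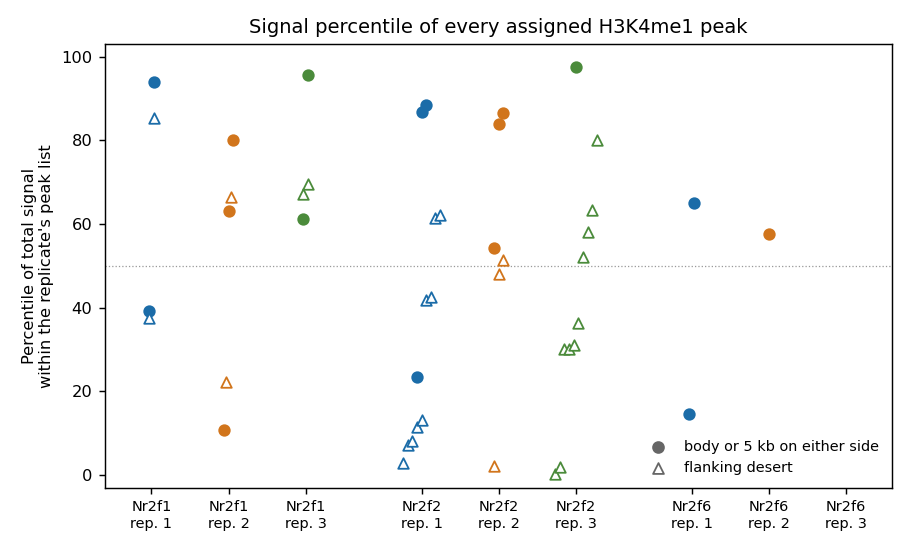
Percentile of total signal of every assigned H3K4me1 peak within its replicate's list (vertical axis), by gene and replicate; filled circles are peaks in the body or 5 kb on either side, open triangles are peaks in the flanking desert, and the dotted line is the 50th percentile. The strongest peak at Nr2f1 lies between 80.0 and 95.6 and at Nr2f2 between 86.5 and 97.4, while most desert peaks of Nr2f2 lie under 50.

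**Figure D4:**
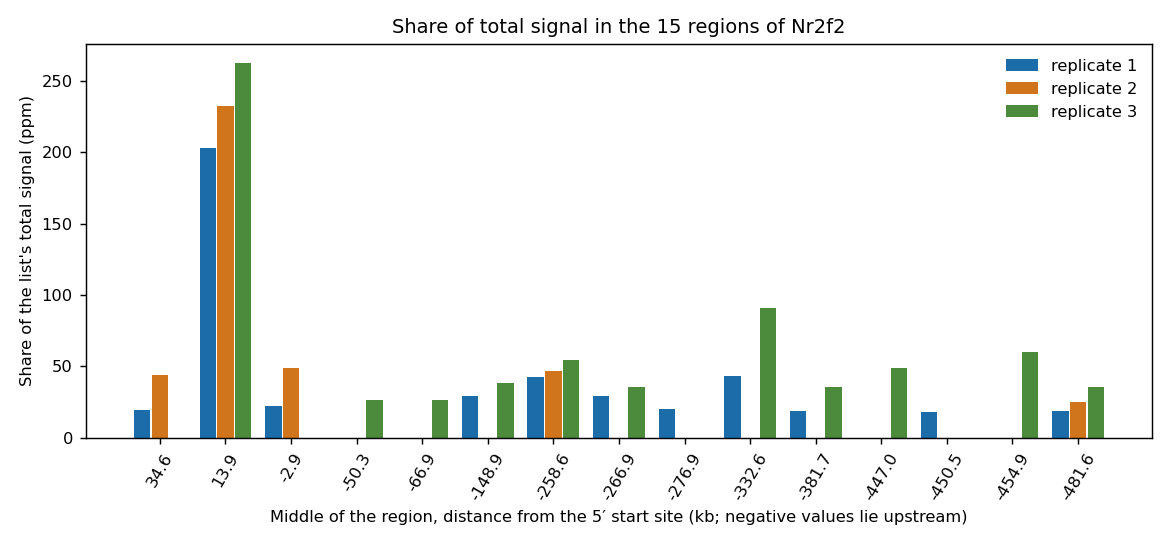
Share of the list's total signal, in ppm, in each of the 15 regions of Nr2f2 for the 3 replicates (bars), ordered by distance in kb of the region's middle from the 5′ start site. The region at the gene takes 203, 233 and 263 ppm, and no bar means that the replicate had no peak there.

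GC content differed between Nr2f2 regions held by different replicates. At Nr2f2, the 4 regions found in replicate 3 alone had GC contents from 37.7% to 42.3%, the 4 found in replicates 1 and 3 from 43.2% to 45.9%, and the 2 found in replicates 1 and 2 from 51.5% to 52.2%. These ranges did not overlap. The 2 regions found in replicate 1 alone had 44.0% and 45.1%, and the 3 found in all replicates spanned 43.0% to 49.8%. Over all regions of the lists, the quartiles spanned 39.7% to 43.5% for replicate 3 alone. For replicates 1 and 3 they spanned 41.8% to 45.6%, so over the lists these groups did overlap. The Nr2f6 regions, absent from replicate 3, had a higher GC content than any region of Nr2f1 or Nr2f2. For these 3 combinations the order was the same over all regions of the lists, with a median GC content of 41.5% for the 2487 regions of replicate 3 alone, 43.7% for the 1588 of replicates 1 and 3, and 52.4% for the 2628 of replicates 1 and 2. The regions of replicate 1 alone differed from this: their median over the lists was 49.3%, above the 47.3% of regions in all replicates, whereas at Nr2f2 they lay below the 48.6% median of its regions in all replicates. At Nr2f1, whose 3 regions had 44.2% to 48.0% GC, the share of signal in replicate 3 over that in replicate 2 was 1.14 on the log2 scale at the region of 44.2%, 0.74 at that of 45.9% and -0.01 at that of 48.0%. At the 3 Nr2f2 regions of all replicates this ratio did not follow the order of GC content, with 0.50 at 43.0%, 0.18 at 48.6% and 0.23 at 49.8%. These ratios compare sums over peaks called separately, whose extents differ. The part of GC content in these differences was not tested.

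**Figure D5:**
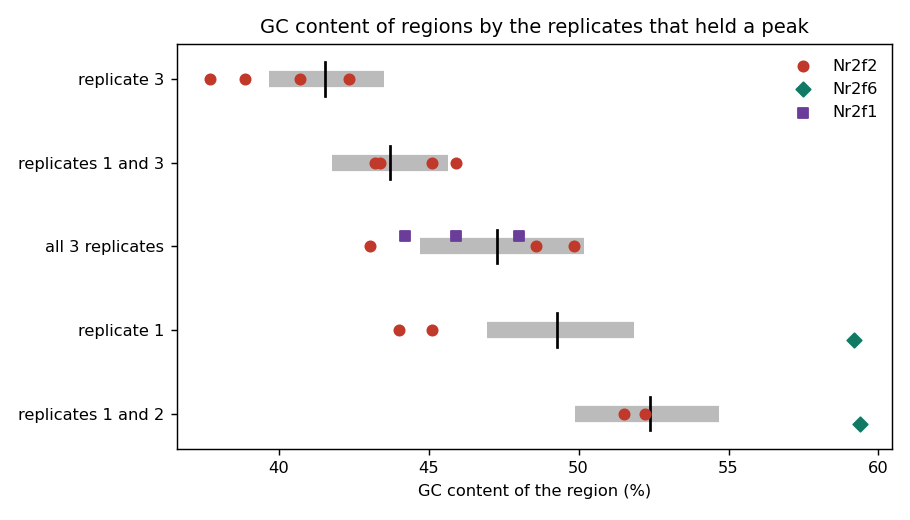
GC content in percent (horizontal axis) of the regions of each gene (symbols), by the replicates that held a peak there; grey bars span the quartiles and black lines mark the median of all regions with the same combination. The Nr2f2 regions of replicate 3 alone lie between 37.7% and 42.3%, and the Nr2f6 regions, absent from replicate 3, at 59.2% and 59.4%.

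Short motifs were counted on both strands in the 12 windows of these genes and in the 250 bases upstream of each gene's 5′ start site. The bases upstream of the other annotated start sites were not searched. They were AGGTCA, the nuclear receptor half-site, a pair of AGGTCA on one strand separated by 1 base, TAATTA, bound by homeodomains, CATCTG, an E-box, GCCNNNGGC, bound by AP-2 proteins, and CTTTGA, the core of the TCF/LEF site. The only match in a window was the AP-2 motif about 333 kb upstream of Nr2f2. AGGTCA was present in 0 of the 12 windows. The background was 8916 windows of the same length, each centred on the median position of highest pileup in a region held by all replicates. Of those, 7.91% held AGGTCA, 12.2% CATCTG, 6.72% CTTTGA, 5.69% the AP-2 motif, 1.11% TAATTA and 0.0112% the spaced pair of AGGTCA. The 12 windows are not a like set, since they required maxima within 200 bp and most rest on 2 replicates. Among 32619 RefSeq promoters of 250 bases, 14.1% held AGGTCA, 14.4% CATCTG, 13.9% CTTTGA, 13.8% the AP-2 motif, 4.80% TAATTA and 0.0337% the spaced pair. A match describes letters and no binding, and these windows cover a small part of each region.

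The other nuclear receptors were read by the same rule. Of 45 genes, 23, 22 and 20 had a peak in the body or 5 kb on either side in replicates 1, 2 and 3, and 18, or 40.0%, in all 3, while 21 had none. The shares in replicates 1, 2 and 3 were 51.1%, 48.9% and 44.4%, beside 24.9%, 22.6% and 19.6% of all protein-coding genes, of which 15.5% had one in all 3. The 5 with the highest mean percentile of the strongest peak were Rara at 99.9, Rarg at 98.9, Thra at 98.1, Rarb at 95.6 and Rxra at 94.6. Of these, Rara, Rarb and Rarg encode the retinoic acid receptors, Rxra their dimer partner and Thra a thyroid hormone receptor. All ranked above Nr2f1 and Nr2f2 by this mean. Of 15 partners and co-regulators, 9, 10 and 11 had a peak, or 60%, 66.7% and 73.3%, and 9, or 60%, had one in all 3 replicates, beside the same shares of all genes. Among the highest by the same mean were Bcl11b at 99.97, Bcl11a at 99.3, Tfap2a at 93.5 and Tfap2b at 76.9. BCL11A and BCL11B are zinc finger proteins first known as binding partners of NR2F factors, and the AP-2 factors encoded by Tfap2a and Tfap2b act in facial mesenchyme and ectoderm.

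The genes whose covered bases over the 3 replicates were most like those of Nr2f1, by Euclidean distance between values of log10(1 + covered bases), were Slc44a3 at a distance of 0.0307, Spink13 at 0.0336 and Hhat at 0.0371. Those most like Nr2f2 were Sfrp2 at 0.0382, Maml2 at 0.0484 and Zfp536 at 0.0531. Sfrp2 encodes a secreted Wnt antagonist and had 10, 6 and 10 peaks covering 32.3, 24.9 and 42.9 kb. Its likeness to Nr2f2 in covered bases follows from how it was chosen. Likeness rests on 3 values a gene.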

How the data were processed

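CUT&Tag for H3K4me1 and IgG was performed on E12 whisker pads. Per the submitters' processing notes, Bowtie2 2.3, SAMtools 0.1.19, bedtools and SEACR 1.3 were used with the mm10 build. The authors called peaks in each replicate without IgG, in stringent mode, keeping the top 1% of blocks. The deposited signal columns hold the total and the maximum pileup of each peak as whole numbers with no scaling to depth. How duplicate reads were treated is not given in the sources used here.

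Peaks were converted to 1-based coordinates and assigned to GENCODE vM21 genes with Python 3.11.15, pandas 2.3.3, numpy 2.4.6 and scipy 1.17.1. Flanking peaks whose middle lay in the body of another protein-coding gene were left out, and distances were taken from the middle of the peak. Peaks of different replicates were merged into regions at 1 bp of overlap. Reference sequences were read from GRCm38.p6 with pysam 0.24.0, and promoter motif shares were counted in the RefSeq promoter table of the same build. The assignment was tested on simulated peaks. The members and gene lists were chosen with earlier results of these data known. The genes named besides the members are their neighbours, genes overlapped by their regions, the 3 most alike in covered bases, and the 5 highest of each list, of which 1 is not reported here by itself. Alternatives covered the flank, the reach, the start sites, peak strength, joining, the signal measure, overlap and each replicate.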

Additional observations from a re-analysis of the deposited data

How the results depend on the processing

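Of 175 values recomputed under alternatives for 17 results, 156 were counted as the same, 18 as moved and 1 as turned in direction. Peak numbers and shares were the same within 1.5 times the main value, and covered bases and percentiles within 1 SD. The differences between Nr2f1 and Nr2f2 were the same if the sign held, whatever their size. With the stronger 50% of each list, the difference of Nr2f1 minus Nr2f2 was -1.33 peaks, against -5.33 in the main setting. Flanks of 20 kb or none, another choice of start sites, distances from the highest pileup, a reach of 500 kb and keeping peaks in bodies of other genes left the peaks and covered bases of all 3 genes the same. Without a flank, a peak near a gene can still be assigned to it as a desert peak, and no assigned peak lay beyond 482 kb. Dropping the flank or shortening the reach could thus change little, yet those values count among the 156. With the strongest 10000 peaks, and likewise with the stronger 50% of each list, Nr2f1 covered 22.5 kb. With the stronger 50%, Nr2f2 had a mean of 4.33 peaks covering 22.3 kb, 33.3% of its regions were in all replicates, and the difference in covered sequence turned, with Nr2f1 0.261 kb above Nr2f2. With overlap of at least 50% of both peaks, 50% of Nr2f1 and 10.5% of Nr2f2 regions were in all replicates. By total signal divided by length, the mean percentile was 48.9 for Nr2f1 and 65.7 for Nr2f6, and that of the strongest peak 67.4 and 79.8. By maximum signal the strongest peak stood at 74.8 for Nr2f1 and 70.6 for Nr2f6. Joining peaks under 1 kb apart put the mean percentile of Nr2f6 at 66.2. The cause of these moves was not tested.

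Leaving out each replicate in turn gave 4 to 4.5 peaks for Nr2f1, 8.5 to 11.5 for Nr2f2 and 0.5 to 1.5 for Nr2f6, where replicate 1 decides the lowest value. The share of regions in all remaining replicates was 23.1 to 50% for Nr2f2 and 0 to 50% for Nr2f6. It was 23.1% for Nr2f2 without replicate 1, 46.7% for Nr2f2 without replicate 2, 50% for Nr2f2 without replicate 3 and 50% for Nr2f6 without replicate 3. A share over fewer lists asks less of a region, and the rise also differed by the replicate left out. Its cause was not tested. The difference of Nr2f1 minus Nr2f2 ranged from -7.5 to -4 peaks and from -14.7 to -3.42 kb. Without Gm10295, an alternative chosen after seeing the data, Nr2f2 had 12, 6 and 12 peaks.

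No paired analysis was possible because the numbers recur only in the IgG group, not analysed here; the test of Nr2f1 against Nr2f2 pairs genes within a replicate, not samples of different groups. The lists hold no read numbers, so a peak that is missing from a list was not among the blocks kept, which does not show that the mark was absent. With 3 replicates, the smallest p of the exact permutation test is 0.25.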
